A study of Mus musculus with 472 samples.

Results

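Alpha retinal ganglion cells are output neurons of the retina with large cell bodies, thick axons and wide dendrites. Here, cells with Spp1, which encodes the secreted phosphoprotein osteopontin and marks alpha cells, were split by whether they carried Fes, or Opn4 or Il1rapl2. A cell was taken with Spp1 at 100 CPM or more. It was put on the Fes side with Fes at 10 CPM or more and both Opn4 and Il1rapl2 below 10 CPM, and on the Opn4 or Il1rapl2 side with either of those genes at 10 CPM or more and Fes below 10 CPM. CPM is a gene's count per 1000000 gene counts of a cell, without spike-in RNA, and 10 CPM or more is called positive below. The Spp1 limit was reached by 170 cells (36.02% of all cells measured), and 69 of those fell on a side (14.6% of all cells): 41 on the Fes side and 28 on the Opn4 or Il1rapl2 side.

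The cells were retinal ganglion cells of C57BL/6J mice aged 7 to 9 weeks, without treatment and with no genetic change named in the labels. Per the labels, a pipette recorded the light responses of each cell in the flat-mounted retina and then drew up its content. The RNA was amplified with Smart-seq2, which copies whole transcripts and carries no molecular identifiers. The labels name no animal, so all cells were treated as 1 sample: values are set side by side, and nothing was tested between the sides. The light responses and cell shapes were not analysed here.

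Alpha cells are divided into ON and OFF types, which fire to light increments and decrements, and into sustained and transient types by how long they fire. Opn4 encodes melanopsin, the photopigment of the intrinsically photosensitive ganglion cells, and the ON sustained alpha cell is known to carry it at a low level. Fes encodes a cytoplasmic tyrosine kinase, and Il1rapl2 encodes a membrane protein related to the interleukin-1 receptor accessory protein. Spp1, Kcng4 (a modifier subunit of Kv2 potassium channels) and Nefh (the heavy neurofilament subunit) are used as markers of the alpha class.

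The split rests on 3 genes whose RefSeq promoters (300 bases of GRCm38.p6 around the start of the gene) are printed here because the RNA of these genes defines the sides. Capitals mark the letters GGTGTGA, the core bound by T-box factors, a family whose members Tbr1 and Eomes differed between the sides (below). The promoters lie at chr7:80387897-80388196 on the minus strand (Fes), chr14:34600093-34600392 on the minus strand (Opn4) and chrX:137570504-137570803 on the plus strand (Il1rapl2).
Fes: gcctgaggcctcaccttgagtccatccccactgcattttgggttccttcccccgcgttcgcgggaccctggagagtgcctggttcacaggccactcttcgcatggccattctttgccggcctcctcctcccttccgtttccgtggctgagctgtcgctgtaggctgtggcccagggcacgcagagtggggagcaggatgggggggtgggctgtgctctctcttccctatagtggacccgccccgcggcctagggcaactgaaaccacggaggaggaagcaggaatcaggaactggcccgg
Opn4: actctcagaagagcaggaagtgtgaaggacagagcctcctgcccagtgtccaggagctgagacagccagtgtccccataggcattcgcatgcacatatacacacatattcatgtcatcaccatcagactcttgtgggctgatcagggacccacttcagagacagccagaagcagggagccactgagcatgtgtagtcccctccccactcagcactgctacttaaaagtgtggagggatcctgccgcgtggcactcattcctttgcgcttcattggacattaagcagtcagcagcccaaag
Il1rapl2: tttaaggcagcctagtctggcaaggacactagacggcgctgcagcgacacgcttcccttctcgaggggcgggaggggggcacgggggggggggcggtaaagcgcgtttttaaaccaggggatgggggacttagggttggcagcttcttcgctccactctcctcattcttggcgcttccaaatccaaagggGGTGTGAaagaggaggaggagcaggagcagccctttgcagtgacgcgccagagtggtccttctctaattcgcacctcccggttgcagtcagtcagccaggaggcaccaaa
With both strands searched and no other motif, these letters occurred 1 time in the Il1rapl2 window and 0 times in the other two. They occurred in 1307 of 32851 promoters of this length (3.98%). Of the 30 leading genes described below, 22 had a promoter entry and none of these held the letters. A match is a description of the sequence only.

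The values that chose the cells are given first, as a description. On the Fes side, Fes (chromosome 7, 80377756 to 80387946, minus strand, mm10) had a median of 91.7 CPM and a highest value of 314.3 CPM. On the other side its median was 0 CPM. Opn4 (chromosome 14, 34590618 to 34600142, minus strand) was positive in 24 of the 28 cells of its side (85.7%), with a median of 33.6 CPM and a highest value of 319.5 CPM. Il1rapl2 (chromosome X, 137570608 to 138846946, plus strand) was positive in 16 of the 28 (57.1%), with a median of 34.7 CPM and a highest value of 1038 CPM. Spp1 itself had medians of 1605 CPM on the Fes side and 1345 CPM on the other side. The cells nearest the limits had 102.4 CPM of Spp1 inside and 98.4 CPM outside, 10.2 and 9.997 CPM of Fes, 11.2 and 8.98 CPM of Opn4, and 10.6 and 7.37 CPM of Il1rapl2.

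**Figure D1:**
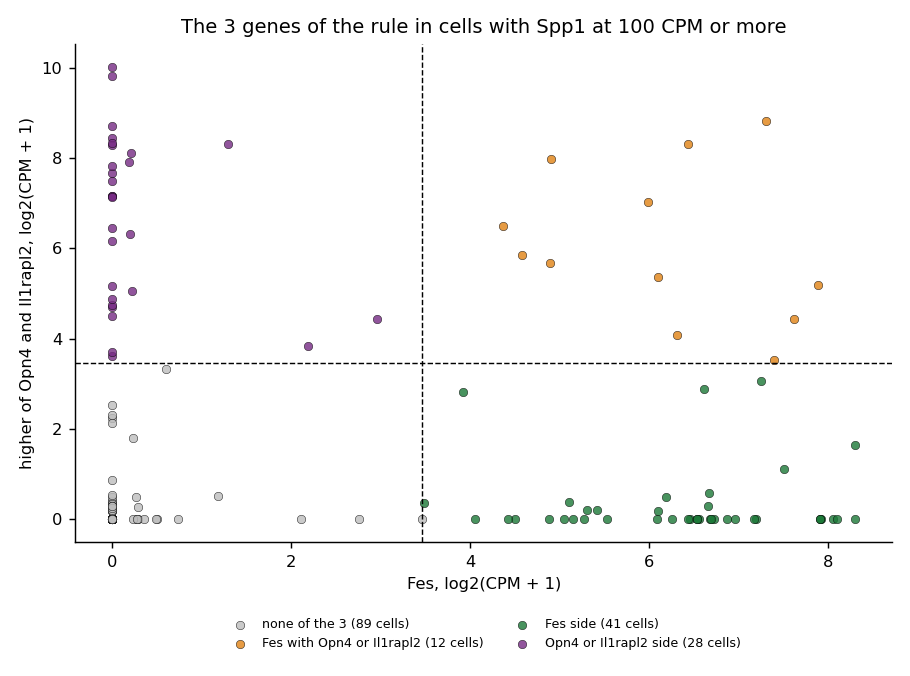
Each point is 1 of the 170 cells with Spp1 at 100 CPM or more. The horizontal axis gives Fes and the vertical axis the higher of Opn4 and Il1rapl2, both as log2(CPM + 1), and dashed lines mark 10 CPM. Cells with Fes and one of the others at 10 CPM or more number 12, and most cells (89) lie below both lines.

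Fes and the other 2 genes met in the same cell about as often as independent shares give at the limit of the rule. At higher levels the counts were below that product, but small. Among the 170 cells, 12 were positive for Fes together with Opn4 or Il1rapl2, against 12.5 from the product of the shares. The product was 12.3 when taken within groups set by the library names, called runs here. At 50 CPM, 3 cells had both against 5.29, and at 100 CPM 1 cell against 2.35. Opn4 and Il1rapl2 shared cells: 15 cells were positive for both against 4.33, and 10 cells at 50 CPM against 1.80. None of these differences was tested. The product takes all cells as alike in how many genes are found. Cells with none of the 3 genes had a median of 4762 positive genes (725 to 8165), and the 12 cells with Fes and another 6187. The part of such unequal detection in these counts was not tested. The Opn4 or Il1rapl2 side accordingly held 12 cells with Opn4 alone, 4 with Il1rapl2 alone and 12 with both.

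The alpha label was checked on 4 markers that the rule did not use: Kcng4, Scn4b (a sodium channel beta subunit), Nefh and Pvalb (the calcium buffer parvalbumin). At least 3 of the 4 were positive in 37 of 41 cells on the Fes side (90.2%, exact 95% interval 76.9 to 97.3%). On the other side 20 of 28 cells reached this (71.4%, 51.3 to 86.8%), and 1 cell with Opn4 alone had none of the 4. Nefh was positive in 100% and 96.4% of cells, Pvalb in 97.6% and 82.1%, Scn4b in 82.9% and 64.3%, and Kcng4 in 63.4% and 64.3%, each Fes side first. At least 3 of the 4 class markers were thus positive in most cells of both sides, and 8 cells of the second side carried fewer. Of 13 markers of other ganglion cell classes, at least 3 were positive in 21 of 41 cells of the Fes side (51.2%). On the other side, 22 of 28 cells reached this (78.6%). These shares were not set against those of all cells measured. In the 89 Spp1 cells with none of the 3 genes, 47 had at least 3 markers (52.8%). These 89 cells also had fewer positive genes, with a median of 4762 against 6236 and 6012.5 on the sides. The label "alpha-like" is used of the sides as a name. Without the shares in all cells, and with fewer genes found in the 89 cells, these markers cannot decide the class of a cell.

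The sides had similar median depth, but the Opn4 or Il1rapl2 side held more cells with few genes. Cells of the Fes side had a median of 6236 positive genes and 5319300 gene counts, and cells of the other side 6012.5 and 5308600. The lower quartiles of positive genes were 5410 and 4405.5 and the lowest cells had 3086 and 2252. Without the 3 cells of fewest genes, which leaves 25 on the Opn4 or Il1rapl2 side, 13 of the 15 leading genes of the Fes side and 15 of the 15 of the other side, described below, were past the limits. Of all genes compared in that setting, 0.164% and 0.605% were. Counts at ribosomal RNA loci took a median of 14.1% and 10.1%, spike-in RNA 0.496% and 0.529%, and mitochondrial genes 0.378% and 0.323%. Markers of other retinal cells were found on both sides: at least 3 of 8 rod genes were positive in 26 of 41 and 16 of 28 cells, at least 3 of 9 bipolar genes in 19 and 11, at least 3 of 9 amacrine genes in 21 and 11, and at least 3 of 8 Müller glia genes in 36 and 21. The summed rod level had medians of 481 and 494 CPM (range 1.596 to 12811 and 0.654 to 18252), the bipolar sum 375.7 and 411.96 CPM (30.6 to 1258 and 2.77 to 1524), the amacrine sum 587 and 454.8 CPM (48.7 to 1208 and 0.794 to 3483), and the Müller sum 961 and 999 CPM (6.44 to 4755 and 440 to 9018). None of the 9 lists of other cells held a gene past the limits used below, a count near the background of 0.201% and 0.462%. The part of this RNA in the differences was not tested. Among cells with fewer than 3 bipolar markers (22 and 17 cells), 10 of the 15 leading genes of the Fes side and 12 of the 15 of the other side, described below, were past those limits. Of all genes compared in that setting, 0.980% and 1.01% were. The bipolar list includes Isl1, itself positive in most cells of both sides. The leading genes were picked in cells that include those of both settings, so neither count of them is independent support.

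The comparison across genes asked which other transcripts go with Fes and which with Opn4 or Il1rapl2. Tbr1, a T-box transcription factor, and Glra1, the glycine receptor alpha1 subunit, led on the Fes side. Prph (peripherin, an intermediate filament protein of neurons with long axons), Cpne6 (a calcium-dependent membrane-binding copine), Prkcq (protein kinase C theta) and Oprm1 (the mu opioid receptor) led on the other side. A gene was compared when its share of positive cells, averaged over the sides, was 10% or more. It was past the limits when the share differed by 25 percentage points or more and the mean of CPM, with 1 added, differed 4-fold or more in the same direction. Of 11468 genes compared, 23 were past the limits in favour of the Fes side (0.201%) and 53 in favour of the other side (0.462%). The balance between the directions depended on the measure: with the difference of mean log2(CPM + 1) set at 2 or more in place of the fold of means, 66 genes favoured the Fes side and 36 the other side. In run A alone (28 and 19 cells) 0.391% and 0.939% of genes were past the limits, without run A (13 and 9 cells) 5.89% and 2.71%, and in cells with 3 or more of the 4 alpha markers (37 and 20 cells) 0.310% and 0.681%. Over all genes compared, the share of positive cells was higher on the Fes side by a median of 3.397 points, and 61.8% of genes had a higher share there. These limits are of size, not of chance, and with 41 and 28 cells some genes can pass them through differences between cells alone.

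**Figure D2:**
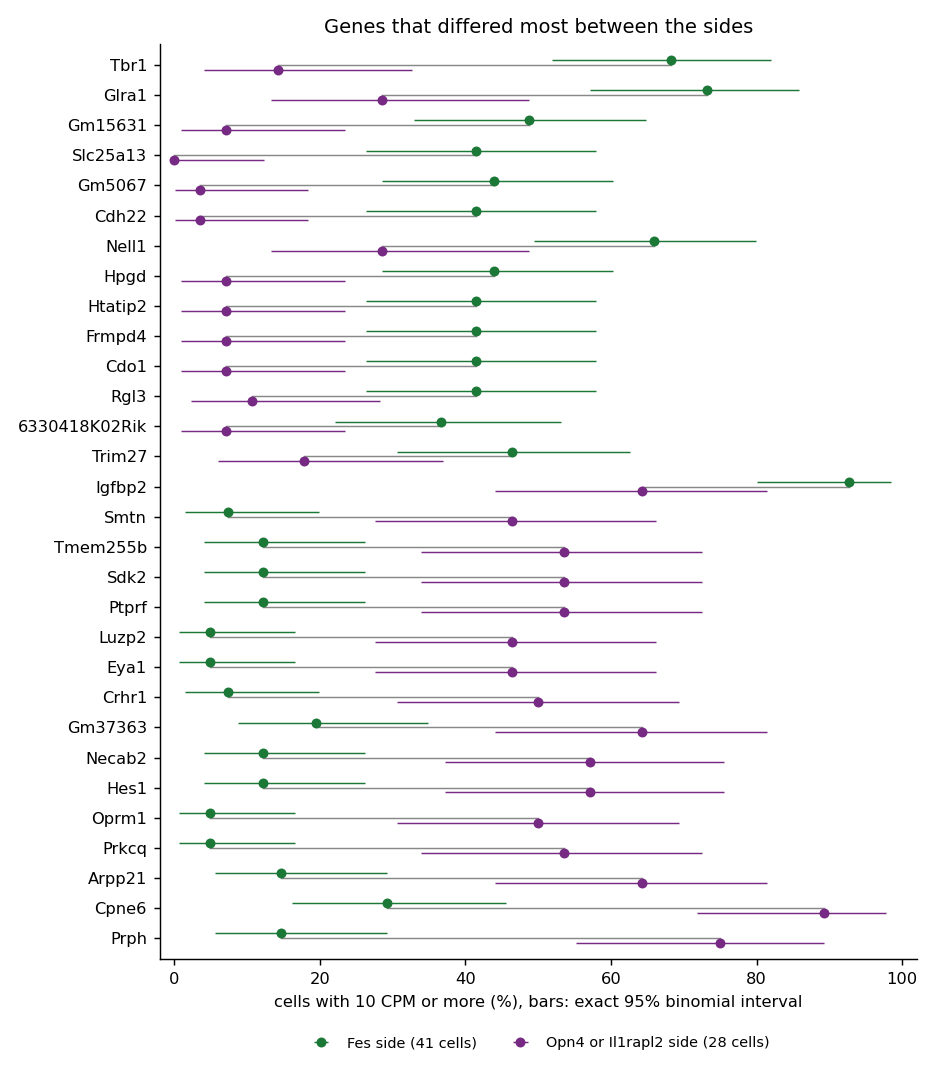
The share of cells with 10 CPM or more (horizontal axis, percent) is shown for the 15 genes of largest share difference in each direction among those past both limits and in the same direction in runs A and D, with exact 95% binomial intervals that cover counting error only. Green points are the 41 cells of the Fes side and purple points the 28 cells of the Opn4 or Il1rapl2 side. Tbr1 (68.3% and 14.3%) and Prph (14.6% and 75%) differ most among them in their direction.

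Tbr1 (chromosome 2, 61802930 to 61814114, plus strand) was positive in 28 of 41 cells of the Fes side (68.3%, 51.9 to 81.9%) and in 4 of 28 cells of the other side (14.3%, 4.03 to 32.7%). Its CPM ran from 0 over a median of 38.3 to 235.9 on the Fes side and from 0 over a median of 0 to 128.9 on the other side. The ranges overlapped, and 1 cell gave 69.5% of the summed Tbr1 level of the Opn4 or Il1rapl2 side. Tbr1 is known to mark a group of ganglion cells in the mouse retina that includes OFF types. None of the 12 cells with both Opn4 and Il1rapl2 was positive for it, which allows a share of up to 25%. In run A, the largest group by library name, 20 of 28 and 2 of 19 cells were positive, and in run D 2 of 4 and 2 of 6.

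Glra1 (chromosome 11, 55514238 to 55608198, minus strand) was positive in 30 of 41 cells (73.2%, 57.1 to 85.8%) and in 8 of 28 (28.6%, 13.2 to 48.7%). Its median was 23.3 CPM with a highest value of 173.2 CPM on the Fes side, and 0.311 CPM with a highest value of 37.7 CPM on the other. Of the 2 sides, the Fes side thus held the highest cells, while low cells occurred on both. In the 89 Spp1 cells with none of the 3 genes, 41 were positive, with values up to 220.8 CPM, so a high Glra1 level was not limited to cells with Fes. Of the 14 receptor genes for GABA and glycine compared, Glra1 alone was past the limits, beside 0.201% and 0.462% of all genes compared. Its partner subunit Glrb was positive in 92.7% and 85.7% of cells.

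Igfbp2, a secreted binding protein for insulin-like growth factors, was common on both sides and differed in level. It was positive in 38 of 41 cells of the Fes side (92.7%, 80.1 to 98.5%) and in 18 of 28 of the other (64.3%, 44.1 to 81.4%). Its quartiles were 214.3 and 421.3 CPM around a median of 346.9 CPM on the Fes side, and 0.401 and 73.6 CPM around 22.01 CPM on the other side. Most cells of the Fes side lay above most cells of the other, but the highest values were alike, at 573 and 556 CPM. In the 89 Spp1 cells with none of the 3 genes, Igfbp2 was positive in 31 (34.8%).

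Slc25a13, the aspartate and glutamate carrier citrin of mitochondria, was positive in 17 of 41 cells (41.5%, 26.3 to 57.9%) and in 0 of 28, which allows a share of up to 10.7% on the other side. Cdh22, a cadherin adhesion molecule, was positive in 41.5% and 3.57% of cells, and 1 cell held 95.4% of its summed level on the Opn4 or Il1rapl2 side. Nell1, a secreted protein with EGF-like repeats, was positive in 65.9% and 28.6%. Hpgd, which inactivates prostaglandins, was positive in 43.9% and 7.14%. Cdo1, which oxidises cysteine, and Htatip2, an oxidoreductase, were each positive in 41.5% and 7.14%. Frmpd4, a scaffold protein of dendritic spines, was positive in 41.5% and 7.14%, Rgl3, an effector of Ras proteins, in 41.5% and 10.7%, and Trim27, a ubiquitin ligase, in 46.3% and 17.9%. The long non-coding RNA Gm15631 was positive in 48.8% and 7.14%. The antisense transcript 6330418K02Rik was positive in 36.6% and 7.14%, and without strand its reads cannot be told apart from those of the genes opposite it. The processed pseudogene Gm5067 was positive in 43.9% and 3.57%, and its reads may be shared with a parent gene. Outside Tbr1, Glra1, Nell1 and Igfbp2, each of these genes was positive in fewer than 50% of the cells of the Fes side.

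On the other side, Prph (chromosome 15, 99055174 to 99058978, plus strand) was positive in 21 of 28 cells (75%, 55.1 to 89.3%) against 6 of 41 cells of the Fes side (14.6%, 5.57 to 29.2%). Its CPM ran from 0 over a median of 127.5 to 1500 on the Opn4 or Il1rapl2 side and from 0 over a median of 0 to 49.1 on the Fes side. The upper quartile of the Fes side was 0.227 CPM. Its few positive cells reached no more than 49.1 CPM, below the median of the Opn4 or Il1rapl2 side. Prph was positive in 11 of 12 cells with both Opn4 and Il1rapl2 (median 520 CPM), in 7 of 12 with Opn4 alone (58.3 CPM) and in 3 of 4 with Il1rapl2 alone (264.5 CPM). In run A it was positive in 3 of 28 and 16 of 19 cells. Its share difference, Fes side minus the other, was -73.5 points in run A alone and -32.5 points without run A (13 and 9 cells).

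Prkcq was positive in 15 of 28 cells of the Opn4 or Il1rapl2 side (53.6%, 33.9 to 72.5%) and in 2 of 41 of the Fes side (4.88%, 0.595 to 16.5%). Its highest values were 932 CPM and 12.2 CPM. Oprm1 was positive in 14 of 28 (50%, 30.6 to 69.4%) and in 2 of 41 (4.88%), with highest values of 258.005 and 67.9 CPM. Both genes were thus present in about every other cell of 1 side and near absent from the other, and cells at 0 occurred on both sides. In the 89 Spp1 cells with none of the 3 genes, Prkcq was positive in 5 and Oprm1 in 2. Prkcq, Oprm1 and Prph were the only followed genes past the limits under all 19 alternative settings.

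Cpne6 was positive in 25 of 28 cells (89.3%, 71.8 to 97.7%) and in 12 of 41 (29.3%, 16.1 to 45.5%), with medians of 190 and 0.347 CPM. It was also positive in 62 of the 89 cells with none of the 3 genes, and in 71.2% of all cells measured, so the Fes side was low in a gene that most ganglion cells here carried. Arpp21, a phosphoprotein regulated by cyclic AMP, had a like order: 64.3% and 14.6% on the sides against 47.9% of all cells. Its highest value was 944 CPM on the Opn4 or Il1rapl2 side and 255.9 CPM on the Fes side.

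**Figure D3:**
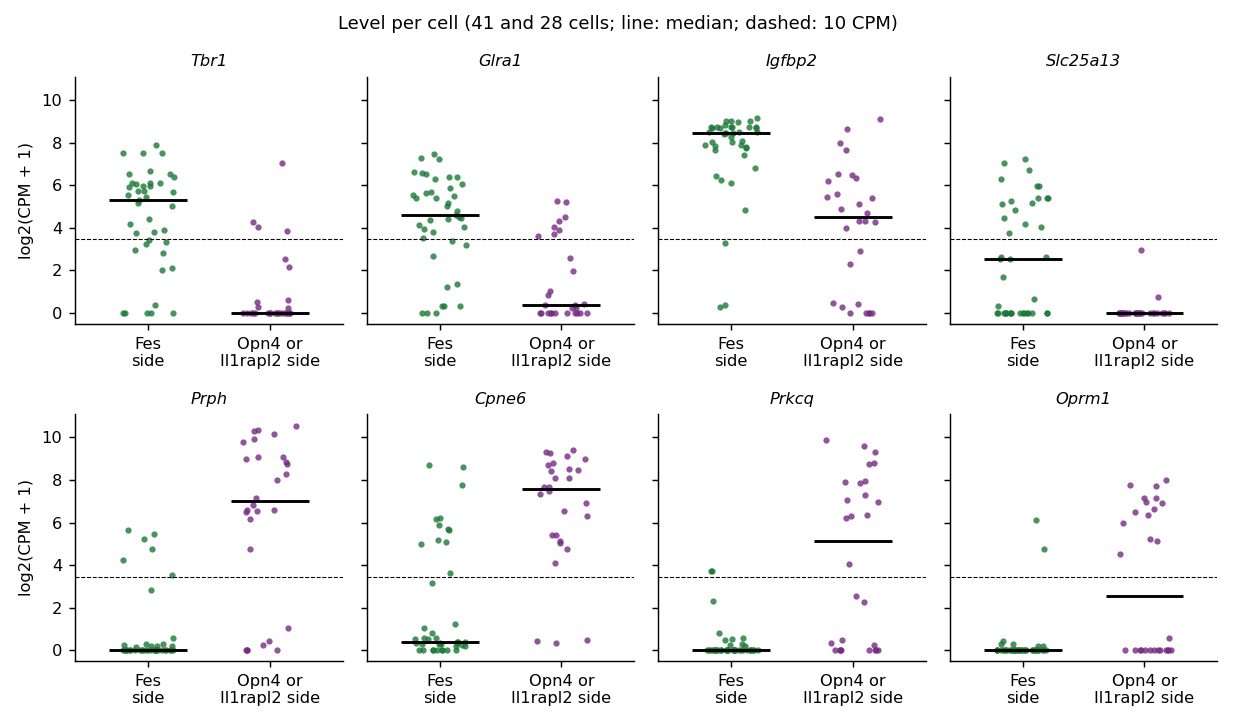
The level per cell, as log2(CPM + 1), is shown for 4 genes higher on the Fes side (upper row) and 4 higher on the Opn4 or Il1rapl2 side (lower row). Each point is 1 cell, the line is the median and the dashed line marks 10 CPM. The medians of Prph were 0 and 127.5 CPM and those of Igfbp2 346.9 and 22.01 CPM, and points of both sides overlap in every panel.

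The other leading genes of the Opn4 or Il1rapl2 side had the following shares. Hes1, a repressor that acts downstream of Notch, was positive in 57.1% of cells against 12.2% on the Fes side, and Eya1, a transcriptional coactivator and phosphatase, in 46.4% against 4.88%. Crhr1, the receptor of corticotropin-releasing hormone, was positive in 50% against 7.32%. For its ligand gene Crh, 1 cell of the 28 and 0 of the 41 were positive. Ptprf, the receptor tyrosine phosphatase LAR, and Sdk2, the adhesion molecule sidekick 2, were each positive in 53.6% against 12.2%. Necab2, a neuronal calcium-binding protein, was positive in 57.1% against 12.2%, Smtn (smoothelin, an actin-binding protein) in 46.4% against 7.32%, Luzp2 in 46.4% against 4.88% and Tmem255b in 53.6% against 12.2%. Gm37363 (64.3% and 19.5%) lies within Xkr4 on the same strand, so its reads cannot be assigned between them.

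The second side was not uniform. Smtn was positive in 11 of 12 cells with both Opn4 and Il1rapl2 and in 1 of 12 with Opn4 alone. Eya1 was positive in 9 and 4 of these cells, Sdk2 in 9 and 5, and Prph in 11 and 7. Ptprf went the other way, with 4 of 12 cells with both genes and 8 of 12 with Opn4 alone. Cells with both genes also had the higher median of Opn4 (142.3 against 27.3 CPM), a value the choice of cells bears on, and of Spp1 (1512 against 847 CPM). Cells with both had a median of 6509.5 positive genes and those with Opn4 alone 6295.5. The 4 cells with Il1rapl2 alone had a median of 4138 positive genes and are too few to describe by shares. Run A held 10 of the 12 cells with both genes and 6 of the 12 with Opn4 alone. The Smtn share difference, Fes side minus the whole second side, was -50.8 points in run A alone. Without run A it was -14.5 points (13 and 9 cells). The differences among these parts, and the part of the runs in them, were not tested.

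**Figure D4:**
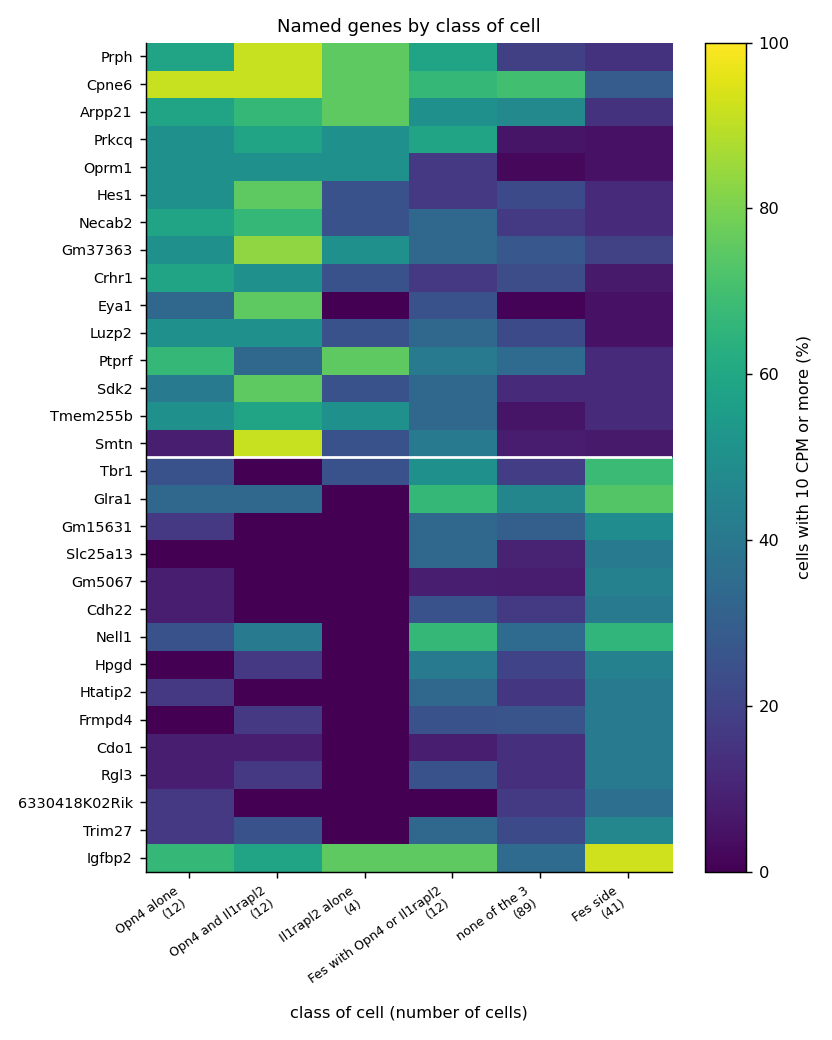
Colour gives the share of cells with 10 CPM or more (percent) for the 15 leading genes of the Opn4 or Il1rapl2 side (above the white line) and of the Fes side (below it), in 6 classes of Spp1 cells with the number of cells in brackets. Smtn stands at 8.33% with Opn4 alone and 91.7% with Opn4 and Il1rapl2, and Cpne6 is low on the Fes side (29.3%) but not among cells with none of the 3 genes (69.7%).

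Among 20 transcription factors that mark ganglion cell classes, 13 were compared, 1 was past the limits on the Fes side (Tbr1) and 2 on the other (Eomes and Irx3), beside 0.201% and 0.462% of all genes compared. Eomes, the T-box factor known from intrinsically photosensitive ganglion cells, was positive in 8 of 28 cells (28.6%) and in 0 of 41, which allows a share of up to 7.32%. Its highest value was 533 CPM on the Opn4 or Il1rapl2 side, and that cell held 53.8% of the summed level. The 8 cells were 4 with Opn4 alone, 3 with both genes and 1 with Il1rapl2 alone. Irx3, a homeobox factor, was positive in 10 of 28 (35.7%) and 2 of 41 (4.88%). Its share difference, Fes side minus the other, was -43.8 points in run A alone (28 and 19 cells). Without run A (13 and 9 cells) it was only -3.42 points, so the Irx3 difference rests on run A. Tfap2d, an AP-2 family factor, had unequal shares (65.9% and 25%) but means of 32.04 and 18.98 CPM, which is short of 4-fold. Pou4f1 (Brn3a) was positive in 95.1% and 71.4%, and Isl1 in 97.6% and 89.3%.

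Shares of genes of the melanopsin cascade were as follows. Of 14 listed genes for its G proteins, phospholipases, channels, kinases, arrestins and regulators, 11 were compared and 0 were past the limits, beside 0.201% and 0.462% of all genes, so the count says nothing particular of them. They had a median share difference of 5.49 points towards the Fes side against 3.397 points over all genes. Plcb4, the phospholipase C of the melanopsin cascade, was positive in 89.3% of the Opn4 or Il1rapl2 side and 70.7% of the Fes side, with medians of 72.8 and 36.7 CPM. Gnaq, a G protein subunit, was positive in 46.4% and 41.5%. The channel genes Trpc6 and Trpc7 were positive in 1 cell each of the 28, and in 1 and 0 of the 41. Rgs4, which speeds the turn-off of Gq and Gi proteins, was positive in all 41 cells of the Fes side and 92.9% of the other, with medians of 1341 and 659 CPM.

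Of 5 genes for the interleukin-1 receptor accessory family and its phosphatase partners, Ptprf was past the limits. This stands beside 0.201% and 0.462% of all genes compared. Il1rapl1, the close relative of Il1rapl2, was positive in 51.2% of the Fes side and 21.4% of the other, with means of 22.3 and 11.3 CPM. Ptprd was positive in 85.4% and 67.9%, and Ptprs in 100% and 96.4%. None of 12 compared genes for the FES relative Fer, the plexins, neuropilins, semaphorins and collapsin response proteins was past the limits. Beside the background of 0.201% and 0.462%, that count says nothing particular of them. Sema3e, a secreted guidance cue, was the most unequal of the list at 63.4% and 28.6%, with means of 60.8 and 36.2 CPM. Furin, the gene next to Fes, was positive in 17.1% and 10.7%, a value looked up after the others were seen.

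None of 9 sodium channel genes and none of 20 compared genes for Kv1 to Kv4 channels and their subunits was past the limits, counts near the background of 0.201% and 0.462%. Of the latter, 16 had a higher share on the Fes side, with a median difference of 7.84 points, beside 61.8% of all compared genes and a median of 3.397 points. Kcnc1, the Kv3.1 channel of fast-firing neurons, was positive in 100% and 96.4% with medians of 340.3 and 333.3 CPM. Kcnb2, a Kv2 channel, had the opposite order, at 53.7% and 78.6%. Among calcium and HCN channels, Cacna1c, an L-type channel, was past the limits towards the Opn4 or Il1rapl2 side (12.2% and 39.3%). Cacna1g, a T-type channel, was at 65.9% and 28.6% with means of 41.1 and 13.1 CPM, short of 4-fold.

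Peptide and calcium-buffer genes gave further unequal values without passing both limits, Necab2 apart. Gal, the precursor of galanin, was positive in 24 of 41 cells of the Fes side and in 4 of 28 of the other (58.5% and 14.3%), with means of 41.9 and 13.5 CPM. Cartpt, which marks ON-OFF direction-selective cells, was positive in 24.4% and 53.6%. Calb1, which encodes calbindin, was positive in 53.7% and 75% with medians of 14.53 and 154.8 CPM, while Calb2, which encodes calretinin, had medians of 1002 and 448.6 CPM. Scg2, a granin of dense-core vesicles, had medians of 92.6 and 394.98 CPM. Of the 10 compared markers of other ganglion cell classes, 2 were past the limits, both towards the Opn4 or Il1rapl2 side. These were Jam2 (29.3% and 57.1%) and Htr1d, a serotonin receptor (14.6% and 46.4%). Of all genes compared, 0.462% were past the limits in that direction. Of 12 pan-ganglion genes, such as Nefl, Slc17a6 and Rbpms, 0 were past them, a count near the background of 0.201% and 0.462%.

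The 30 leading genes were counted in each cell. Cells of the Fes side had a median of 8 of the 15 Fes-side genes and 2 of the 15 others, and cells of the other side 2 and 9.5. That follows from how the genes were picked. Spp1 cells outside both sides had no part in picking them. The 12 cells positive for Fes together with Opn4 or Il1rapl2 had medians of 6 and 6.5. Of these, 6 cells had more Fes-side genes, 5 had more of the others and 1 had as many of each. The 89 cells with none of the 3 genes had medians of 3 and 3, at 4762 positive genes in all against 6236 and 6012.5 on the sides.

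**Figure D5:**
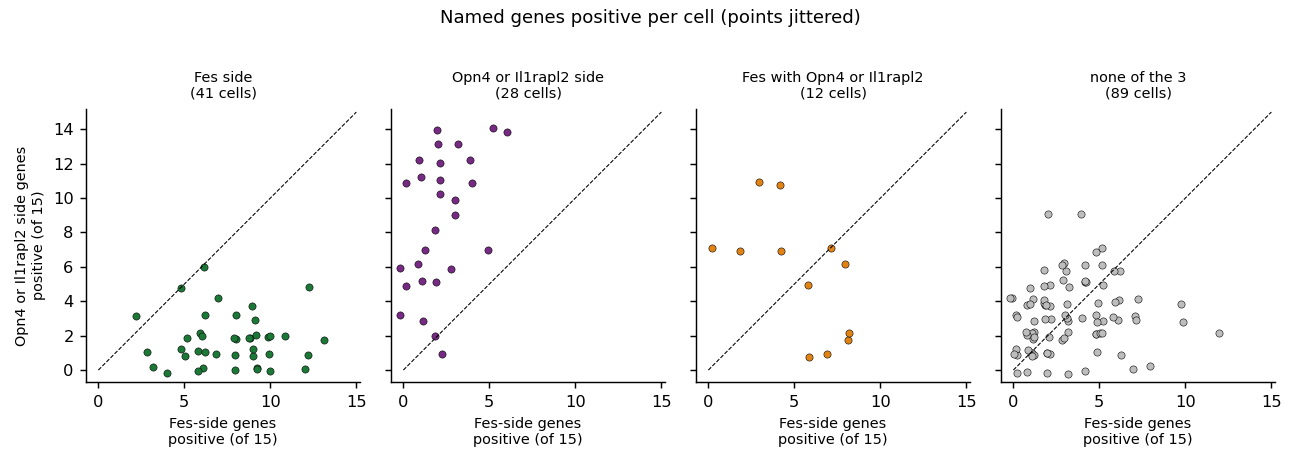
Each point is 1 cell, jittered by less than 0.5. The horizontal axis counts the positive genes of the 15 Fes-side genes and the vertical axis those of the 15 genes of the Opn4 or Il1rapl2 side, and the dashed line marks equal counts. Points of the 2 sides lie apart because these cells chose the genes. The 12 cells with Fes and another gene lie on both sides of the line (6 and 5, with 1 on it).

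Pairs of these genes were also counted in the 89 cells with none of the 3 genes. Pairs within the Fes-side genes met 600 times, summed over pairs and cells, against 436.9 from the products of their shares, a ratio of 1.37. Pairs within the genes of the other side met 486 times against 398.7, a ratio of 1.22. Pairs across the groups met 983 times against 925, a ratio of 1.06. Cells differ in the number of genes detected (725 to 8165 positive genes among these 89), and its part in the ratios was not tested. Of 6 pairs picked from the leading genes, 4 lie within a side: Tbr1 and Igfbp2 met in 14 cells against 5.57, Tbr1 and Glra1 in 9 against 7.37, Prph and Prkcq in 4 against 0.955, and Prph and Cpne6 in 13 against 11.8. The pairs across sides were Tbr1 and Prph, with 2 cells against 3.06, and Igfbp2 and Prph, with 5 against 5.92.

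The same conditions were applied to cells below the Spp1 limit. There, 10 cells met the Fes condition and 31 the Opn4 or Il1rapl2 condition. Of the 15 leading genes of each side, 9 and 9 had a higher share in the same direction (60% each), beside 51.98% and 46.8% of all genes compared in those directions. Cells with Fes and little Spp1 had a median of 2.5 Fes-side genes and 4 of the others. Tbr1 was positive in 1 of these 10 cells, and Prph in 8 of the 31 with Opn4 or Il1rapl2.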

How the data were processed

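Single ganglion cells (472 cells, 1 group) were measured by Smart-seq2. The values, as deposited, are estimated counts of each gene in each cell (55450 genes, 92 spike-ins; 1.36% of values not whole), which the authors made after alignment with STAR 2.7.0 to mm10, per the submitters' processing notes; for the counting tool, nothing is stated in these sources. Counting by strand is not stated, so overlapping and antisense genes are uncertain. Counts were rounded to whole numbers and scaled to 1000000 gene counts per cell. Depth on the sides ran from 2860023 to 8679775 gene counts. Runs A (234 cells), B (98), C (62), D (59) and E (19) come from the library names. A, D and E were set by a code within the name, and B and C only by digits of its prefix. That these groups are sequencing runs is read from the names alone.

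The members and 34 gene lists (366 genes) were chosen with earlier results of these data known. Besides the 4 genes of the rule, the text names the 15 genes of largest share difference per direction among genes past the limits that kept the direction of mean log2(CPM + 1) in runs A and D, the only runs with 3 or more cells of each side, and genes of the lists, some of which are not reported here. This run condition held for 21 of the 23 and 49 of the 53 genes. Pairs of genes, and Furin, were added after values were seen. Intervals of shares are exact (Clopper-Pearson, 95%), and a share of 0 is given the upper limit that 3 counts allow; both cover counting error only. No p-value was computed. No doublet caller was run, since cells were patched singly. The highest correlation between 2 of the 69 cells was 0.858, so no library appeared to be present more than once. Positions come from GENCODE mouse release M21, which holds all 55450 identifiers. The comparison was tested on simulated data in which each gene was shuffled between cells on its own. That removes differences between whole cells, so it cannot show how many genes pass the limits through these. Tools were pandas 2.3.3, scipy 1.17.1, numpy 2.4.6 and matplotlib 3.10.9 in Python 3.11.15.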

Additional observations from a re-analysis of the deposited data

How the results depend on the processing

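Under 19 alternative settings, 17 planned and 2 chosen after seeing the data, none of 665 share differences of 35 followed genes reversed and 100 moved. The settings share most of their cells, so this is no independent support. The followed genes were the 30 leading ones and Eomes, Irx3, Jam2, Htr1d and Cacna1c. Shares of compared genes past the limits, 0.201% on the Fes side and 0.462% on the other, were larger in most settings that left fewer cells. They were 0.980% and 1.01% with cells of fewer than 3 bipolar markers (22 and 17 cells), 0.568% and 0.894% with Kcng4 at 10 CPM or more (26 and 18 cells), 0.391% and 0.939% in run A alone, and 5.89% and 2.71% without run A (13 and 9 cells). With Opn4 alone as the second side they were 0.824% and 0.980%, and with Il1rapl2 0.998% and 0.981%. With 100 CPM for the 3 genes, an added setting, they were 1.30% and 1.10% (20 and 18 cells). The share on the Fes side was 0.314% with 20 CPM for the 3 genes, and the shares were 0.310% and 0.681% with 3 or more of 4 alpha markers, the other added setting. Without a filter on the mean share they were 0.130% and 0.301%. With genes called positive at 100 CPM they were 0.0571% and 0.247%, and with mean log2(CPM + 1) 0.576% and 0.314%. Beyond the number of cells or genes entered, the cause was not tested. Thinning each cell to 1000000 counts gave 25 and 64 genes.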
